A study of Mus musculus and Rattus norvegicus with 6 samples.

Results

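The genes described here encode the subunits of the oxidative phosphorylation machinery of mitochondria, measured in liver of leptin-deficient mice and rats. A probe set was taken as a member if the platform annotation gave it a single gene symbol that begins with Nduf, Sdha, Sdhb, Sdhc, Sdhd, Uqcr, Cox4 to Cox8 or Atp5, or that equals Cyc1. The mouse array held 186 such probe sets for 95 genes, of 45037 probe sets and 18193 genes with a single symbol. The rat array held 102 for 91 genes, of 31042 probe sets and 14217 genes. A further 10 mouse and 7 rat probe sets carried several symbols and were not counted. Among the members, 74 mouse and 71 rat genes were nuclear-encoded subunits of the liver complexes, with Ndufa4 placed in complex IV. The others were assembly factors (Ndufaf, Sdhaf), isoforms known from other tissues, the supercomplex protein Cox7a2l, and in rats Atp5if1 and the pseudogene Cox6c-ps1. Sdhaf genes met the rule through its prefix Sdha and are assembly factors, so they were set apart like the Ndufaf genes.

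Oxidative phosphorylation passes electrons from NADH and succinate along the inner mitochondrial membrane and uses the proton gradient so formed to make ATP. Complex I (NADH dehydrogenase) and complex II (succinate dehydrogenase) feed electrons to coenzyme Q, complex III hands them to cytochrome c, complex IV (cytochrome c oxidase) passes them to oxygen, and complex V is the ATP synthase. Most subunits are nuclear genes, a smaller set of core proteins is encoded in mitochondrial DNA, and hepatocytes, which are rich in mitochondria, express the whole set strongly.

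The study set wild-type (WT) and leptin-deficient animals side by side and asked what leptin does in their livers. Leptin is the adipose hormone that restrains feeding. The mice were male C57/BL6J animals, either WT or homozygous for Lepob, and the rats male F344/NSlc animals, either WT or homozygous for Lepmkyo, all 20 weeks old. Saline went to a WT and a mutant group and leptin to a mutant group only, each by the intraperitoneal route, and liver was taken 6 h later. The leptin dose stands in the labels as "1 microg/mg" and is not interpreted. WT animals with leptin were not analysed here, and neither mutant makes working leptin. The source field of the rat mutants names Lepob and a title reads Lepmyo, so their allele was taken from the descriptions.

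Each group was represented by 1 array, 3 per species and 6 in all, and the labels do not say how many animals contributed RNA to it. Replicate spread is therefore unknown, and the ratios below carry no test and no p-value. "Higher" and "lower" describe the signals of a pair of arrays, nothing more. Signals are linear intensities made with MAS5, in arbitrary units. The floor under which a signal was taken as not measured was the median of all values of the platform, 82.7 in mice and 97.0 in rats, and lower values were raised to it before a ratio was taken. The error that could be estimated was how far probe sets for a given gene disagreed. For members its pooled SD was 0.23 (log2) in the mouse genotype comparison over 47 genes, 0.13 in the mouse leptin comparison, and 0.23 and 0.19 in rats over 6 genes. Over all genes it was 0.43, 0.24, 0.43 and 0.24. Variation between animals is not part of it.

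The arrays were those of liver by their markers. Hepatocyte genes such as albumin (Alb) and apolipoprotein A1 (Apoa1) were bright on every array, while the adipocyte list was under the floor on all mouse arrays and muscle myosins were under it in mice. The leptin transcript itself was under the floor on every array, so liver gave no check of the genotype labels. The summed signal of 8 mouse hepatocyte markers was 320209 in WT, 253437 in Lepob/Lepob saline and 259599 in Lepob/Lepob leptin liver. That of 9 macrophage markers was 21251, 30589 and 27947, and that of 7 stellate cell markers 5498, 7903 and 8261. In rats the sums of 9 hepatocyte markers were 332052, 302548 and 330226, of 7 macrophage markers 14938, 16789 and 17358, and of 7 stellate markers 3010, 8080 and 8186. Endothelial sums were 3425, 5226 and 4743 for 5 mouse markers and 5476, 6833 and 7733 for 4 rat markers. Red blood cell sums were 2771, 1142 and 1102 for 1 mouse marker and 8483, 19079 and 20055 for 2 rat markers, lower in the mouse mutants and higher in the rat mutants than in WT. Bright genes weigh most in these sums, and members of a list differed. Mouse Lyve1 read 478, 1856 and 1714, while Pecam1, also endothelial, read 216, 110 and 150. Of the mouse macrophage markers, Clec4f (2739, 2375 and 2070) and Marco (324, 167 and 190) were lower in the mutants. Rat Col3a1 alone read 1266, 4914 and 5002 within the stellate sums. In whole liver a change in the number of cells of a type and in the RNA per cell cannot be told apart. The part of these shifts in the ratios below was not tested.

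The promoters of subunit genes are shown because many members lay on the same side of 0. Nuclear respiratory factor 1 (Nrf1) and the ETS factor GABP are known activators of respiratory chain genes. RefSeq promoters of build GRCm38.p6 were taken as the 250 bases before a gene's annotated start. Of the 74 mouse subunit genes 62 were found, with 67 promoters. The NRF1 motif, GCGC followed by any base and then TGCGC, searched on both strands, was in 12 of these 67 (17.9%) and in 3.74% of all 32851 promoters. The ETS motif CCGGAAG, on both strands, was in 12 (17.9%) against 6.91% of all promoters, and the YY1 motif ATGGCGGC in 2 (2.99%) against 1.03%. Any of these motifs was in 34.3% of subunit promoters and 10.9% of all, and in no promoter did different motifs overlap. A match is a run of letters, not a shown binding site.

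The promoters printed are, for each complex, that with the most matches among measured subunits whose window holds no other RefSeq gene, followed by those of Ndufa9 and Cox8a, whose ratios are described below. Capitals mark motif matches, and each runs from 5′ to 3′ on the strand of its gene. Ndufa5 (complex I) lies at chr6:24527527-24527776, minus strand. Sdhb (complex II) lies at chr4:140961021-140961270, plus strand. Uqcr11 (complex III) lies at chr10:80406822-80407071, Cox6a1 (complex IV) at chr5:115348959-115349208 and Atp5e (complex V) at chr2:174464102-174464351, each on the minus strand. Ndufa9 lies at chr6:126849145-126849394 and Cox8a at chr19:7217617-7217866, both on the minus strand.
Ndufa5: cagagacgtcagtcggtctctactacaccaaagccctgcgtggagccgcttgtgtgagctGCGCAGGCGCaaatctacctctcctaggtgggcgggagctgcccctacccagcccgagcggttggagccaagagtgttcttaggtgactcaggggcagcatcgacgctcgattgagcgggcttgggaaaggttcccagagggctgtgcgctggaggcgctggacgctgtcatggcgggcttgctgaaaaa
Sdhb: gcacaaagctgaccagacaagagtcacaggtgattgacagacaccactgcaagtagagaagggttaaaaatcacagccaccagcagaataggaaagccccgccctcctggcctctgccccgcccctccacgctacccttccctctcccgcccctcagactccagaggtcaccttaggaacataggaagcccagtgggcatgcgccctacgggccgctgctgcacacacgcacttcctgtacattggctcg
Uqcr11: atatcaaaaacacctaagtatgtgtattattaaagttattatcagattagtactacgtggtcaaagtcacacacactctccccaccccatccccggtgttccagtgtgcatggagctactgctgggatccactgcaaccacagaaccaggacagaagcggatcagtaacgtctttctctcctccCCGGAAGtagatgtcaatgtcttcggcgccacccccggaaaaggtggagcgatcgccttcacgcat
Cox6a1: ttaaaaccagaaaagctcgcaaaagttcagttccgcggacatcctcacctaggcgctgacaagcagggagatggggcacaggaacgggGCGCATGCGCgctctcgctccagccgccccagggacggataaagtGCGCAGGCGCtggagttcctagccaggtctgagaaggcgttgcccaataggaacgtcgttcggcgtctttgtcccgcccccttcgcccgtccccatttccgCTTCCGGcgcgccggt
Atp5e: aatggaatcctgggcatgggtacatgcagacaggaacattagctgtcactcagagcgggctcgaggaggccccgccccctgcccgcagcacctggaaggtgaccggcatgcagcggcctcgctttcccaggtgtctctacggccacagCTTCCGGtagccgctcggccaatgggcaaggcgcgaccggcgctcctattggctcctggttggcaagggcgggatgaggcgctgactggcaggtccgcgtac
Ndufa9: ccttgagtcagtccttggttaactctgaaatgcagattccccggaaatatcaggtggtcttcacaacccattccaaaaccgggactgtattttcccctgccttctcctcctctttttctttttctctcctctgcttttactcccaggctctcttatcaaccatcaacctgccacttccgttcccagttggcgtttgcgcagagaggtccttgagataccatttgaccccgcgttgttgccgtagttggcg
Cox8a: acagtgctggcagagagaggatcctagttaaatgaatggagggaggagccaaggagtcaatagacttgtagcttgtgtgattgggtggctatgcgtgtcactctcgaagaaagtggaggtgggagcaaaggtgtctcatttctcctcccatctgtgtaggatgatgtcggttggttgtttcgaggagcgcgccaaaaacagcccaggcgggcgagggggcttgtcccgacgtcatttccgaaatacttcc

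Cox6a1 held NRF1 matches 162 and 117 bases before the start and an ETS match at 16. Ndufa5 held an NRF1 match at 190 bases, Uqcr11 an ETS match at 66 and Atp5e an ETS match at 102. None of these letters was in the windows of Sdhb, Ndufa9 or Cox8a. Distances count from the annotated start. The Ndufa5 window ends in an ATG that reads on without a stop, so it may run into coding sequence. Among measured mouse subunits, the median log2 ratio of Lepob saline over WT saline was 0.08 for 10 genes with an NRF1 match and 0.14 for 51 without. For the ETS motif it was 0.11 for 12 genes with a match and 0.12 for 49 without.

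Subunit transcripts were among the brightest signals on the arrays. The median subunit stood at the 97.7th percentile of gene signals in mice and the 96.8th in rats. Median subunit signals were 10719 in WT, 12421 in Lepob saline and 12021 in Lepob leptin mouse liver, and 8314, 9287 and 9228 in the same order in rats. In mice 73 of 74 subunits were measured, Ndufb4 being under the floor, and in rats all 71 were. Of the subunits, 3 in mice (Ndufb4, Ndufb1 and Cox7c) and 2 in rats (Ndufa5 and Cox5a) had mean signals under 1000, and their ratios carry more noise than those of the rest. The probe sets with the highest mean signals were those of Ndufa1, Sdhb, Uqcrb, Cox6a1 and Atp5g3 for complexes I to V in mice, and of Ndufb9, Sdhd, Uqcrq, Cox6c and Atp5mc3 in rats. The dimmest were those of Ndufb4, Sdhc, Uqcr10, Cox7c and Atp5mpl in mice, and of Ndufa5, Sdha, Uqcrc2, Cox5a and Atp5mpl in rats. A signal depends on the probes as well as the transcript, so this order is of probe sets, not of transcript levels.

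In saline-injected mice, most subunits had somewhat higher signals in Lepob/Lepob than in WT liver, and few differed by much. Of 73 measured subunits, 52 had a ratio above 0 (71.2%), where 47.4% of all 11956 genes measured did. Their median log2 ratio was 0.11, a fold of 1.08, against -0.03 for all genes and 0.06 for the 4097 genes with mean signals of at least 1000, of which 54.8% lay above 0. At least 1.5-fold higher were 4 subunits (5.48%), with a background of 12.3%, and at least 1.5-fold lower was 1, with a background of 12.6%. These counts depended on the processing: 13 of the 73 were at least 1.5-fold higher after arrays were centred on their median, with a subunit median of 0.37 and a median of all genes of 0.22. Without probe sets that can bind several transcripts, 1 of 54 was. The share of all genes at 1.5-fold was not counted under these settings, so the 12.3% is no background for them. After centring 70 of 73 subunits were above 0, where 67.7% of all genes were.

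**Figure D1:**
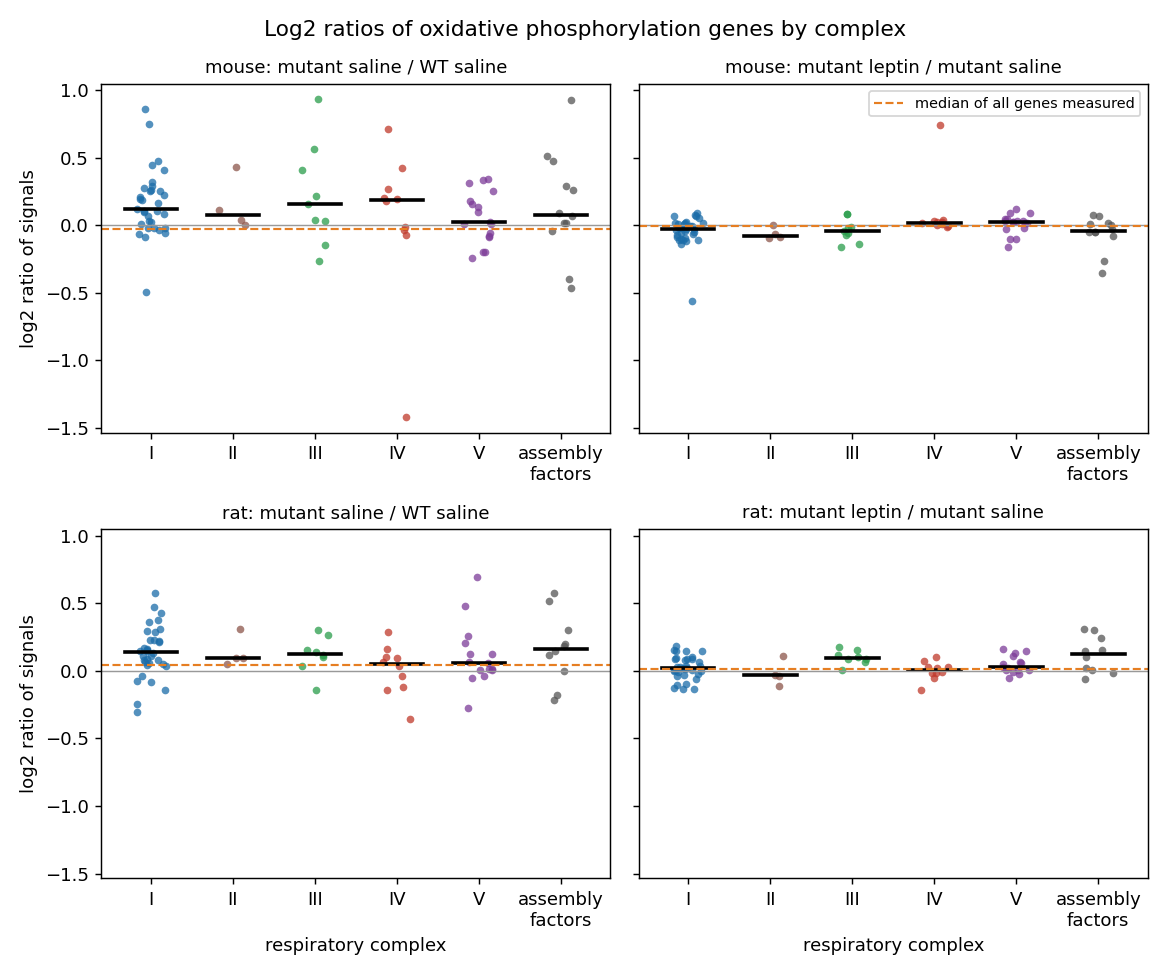
Log2 ratio of signals (vertical axis) of each measured oxidative phosphorylation gene, by complex and for assembly factors, in the genotype comparison (left) and the leptin comparison (right) of mice (top) and rats (bottom). Each point is 1 gene from 1 pair of arrays, black bars are medians and the dashed line is the median of all genes measured; in the genotype panels most points lie above 0, and in the leptin panels they crowd around 0.

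Complex I held the largest number of members. In mice 25 of its 33 measured subunits were above 0, with a median of 0.12 and a range of -0.50 to 0.86. Ndufa2, a small accessory subunit of the matrix arm, had signals of 5963 in WT, 10854 in Lepob saline and 10058 in Lepob leptin liver. Both mutant arrays were high and WT was low, and the saline ratio was 0.86 (1.82-fold). Ndufb2, an accessory subunit of the membrane arm, had 5119, 8613 and 8218, a ratio of 0.75 (1.68-fold). Its other bright probe set gave 0.77, while a dim one, near the floor, read 118 and 78.6 and lay at -0.52.

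Ndufa9, which sits near the coenzyme Q site, had signals of 6903, 9600 and 9417, 1.39-fold higher in the mutant. The catalytic core, most of whose members carry the flavin or iron-sulfur clusters, was nearer to 0 on the brightest probe sets. Its 6 measured members had a median of 0.06, with 4 above 0. Ndufv1, the flavin subunit, was highest of them at 0.26, and Ndufv2 was lowest at -0.06. Other bright probe sets gave 0.12 and 0.36 for Ndufv1 and 0.01 and 0.30 for Ndufv2. Ndufs7 was at 0.01 and at 0.14 on its other one. Ndufs8 was at -0.02, and its other bright ones ran from -0.04 to 0.22. The distance between core and accessory subunits thus depended on the probe sets. The 27 accessory subunits had a median of 0.17. All 12 measured complex I subunits whose symbols begin with Ndufa lay above 0, at 0.02 to 0.86 with a median of 0.23. Of 10 Ndufb subunits 6 did, with a median of 0.10. Ndufb1 was lowest in the complex, with dim signals of 271, 192 and 130, a ratio of -0.50.

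Complex II has 4 subunits, and in mice 3 were above 0. Sdhb, the iron-sulfur subunit, had signals of 10933, 14756 and 13856, 1.35-fold higher in Lepob saline than in WT liver. The brightest probe set of the catalytic flavoprotein Sdha read 12572, 12952 and 12369 (0.04), and its other bright one 9097, 11467 and 11057 (0.33). The membrane anchor Sdhc read 4357, 4355 and 4366 on its brightest probe set, with little difference between the 3 arrays, and 1626, 1414 and 931 on a dimmer one. The median of the complex was 0.08.

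In complex III, 7 of 9 mouse subunits were above 0, with a median of 0.16. Uqcrc2, a core protein of the matrix side, had the highest ratio of any subunit: signals were 8488, 16187 and 15734, a ratio of 0.93 (1.91-fold). The size depended on the probe set, since its other one read 9533, 12908 and 12030, a ratio of 0.44. Uqcr10 was likewise uneven: its brightest probe set gave 5605, 8293 and 7957 (0.57), another 1785, 1564 and 1599 (-0.19). It was the only one of 37 mouse subunits with several probe sets of at least 1000 whose bright probe sets lay 1.5-fold or more apart. Uqcrb was lowest in the complex on its brightest probe set, at 49954, 41664 and 41123 (-0.26). Its other one read 10528, 10992 and 10422 (0.06), on the other side of 0. The catalytic subunits Cyc1, with 13091, 15234 and 13859 (0.22), and Uqcrfs1, with 11120, 12383 and 11792 (0.16), lay between the highest and the lowest subunit.

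Complex IV had a median of 0.19 in mice with 6 of 10 subunits above 0, and the widest range. Cox8a, a small membrane subunit, had signals of 7316, 11987 and 12228, a ratio of 0.71 (1.64-fold), and 0.34 on its other bright probe set. Cox6b1, which faces the intermembrane space, had 20399, 27401 and 27562, a ratio of 0.43. Ndufa4, counted in this complex, was at 0.20 in mice and -0.12 in rats. Cox7c was the lowest subunit of all at 246, 92.1 and 154, a ratio of -1.42 (2.67-fold lower). Its probe set was dim, in contrast to rat liver, where Cox7c read 9743, 10431 and 10334.

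Complex V had a median of 0.02 in mice as deposited, with 11 of 17 subunits above 0 and a range of -0.24 to 0.34. After quantile normalization its median was 0.11, that of complex II 0.03 and that of complex III 0.10. The catalytic beta subunit Atp5b had signals of 26769, 27207 and 24376, and the 5 subunits of the F1 head had a median of 0.02. At the upper end was Atp5l, a membrane subunit, with 9809, 12459 and 12602 (0.34). At the lower end was Atp5j, of the peripheral stalk, with 15797, 13376 and 14230 (-0.24). None of the 17 was 1.5-fold apart.

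**Figure D2:**
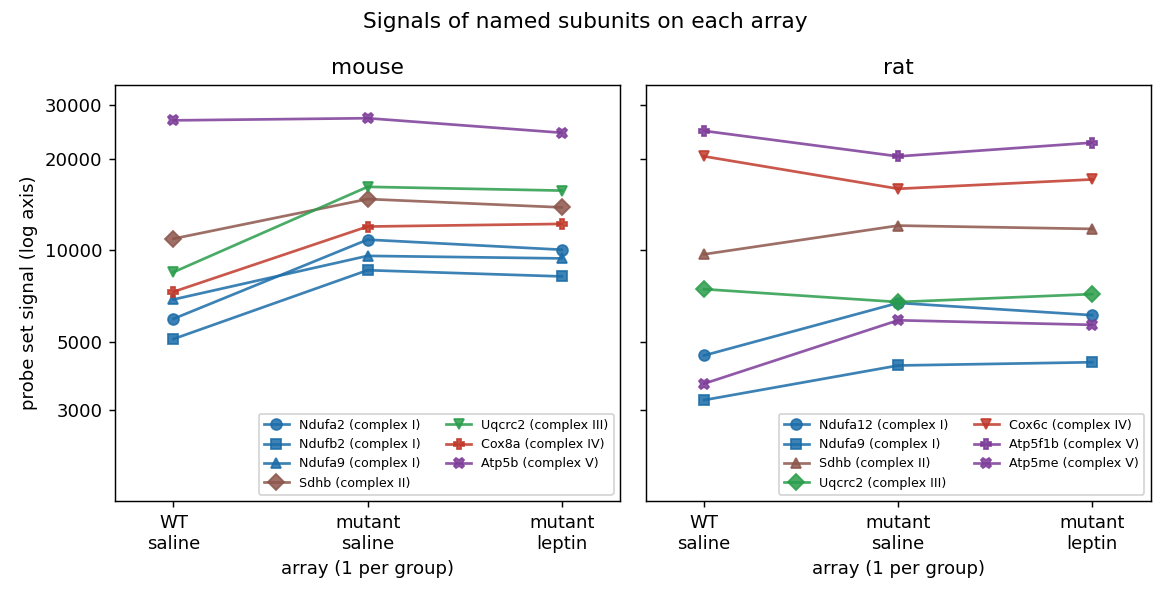
Signal on each array (log axis) of 7 mouse (left) and 7 rat (right) subunits, with lines joining the WT saline, mutant saline and mutant leptin array of a gene and colours showing the complex. In mice the lines of Ndufa2, Ndufb2, Uqcrc2 and Cox8a climb from WT to mutant saline and stay level after leptin, while in rats Atp5me and Ndufa12 climb and Cox6c and Atp5f1b descend.

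The brightest probe set stood for each gene, and in mice this choice weighed on the ratio. In 25 of the 37 subunits with several bright probe sets (67.6%) the brightest gave a lower ratio than the median of the others, where this was so for 41.2% of 1168 genes of the whole array. The median ratio was 0.10 for the brightest and 0.16 for the others. Cox6a1 read 33371, 31692 and 32601 on its brightest probe set (-0.07) and 13834, 18467 and 18616 on the other (0.42). Atp5a1, the alpha subunit of the ATP synthase, read 18470, 17482 and 16338 (-0.08) against 13366, 17327 and 17251 (0.37). The sign of the genotype ratio thus differed between probe sets in both genes. It also differed between bright probe sets of Atp5h, Cox5a, Cox5b, Cox6c, Ndufb5, Ndufb7, Ndufb11, Ndufc1, Ndufc2, Ndufs8, Ndufv2, Sdhd, Uqcr10 and Uqcrb. For these genes the side of 0 rests on the probe set chosen. With a median over probe sets, 55 of 73 subunits were above 0 (75.3%), where 42.8% of all genes were. Besides Uqcr10, probe sets lay 1.5-fold or more apart in 5 mouse subunits for genotype, each time through a dimmer one: Atp5j2 (-0.32 to 0.31), Ndufa10 (-0.43 to 0.41), Ndufab1 (-0.85 to 0.32), Ndufs8 (-0.45 to 0.22) and Sdha (-0.29 to 0.33). For leptin this was so of 3, Ndufab1 (-0.09 to 0.59), Ndufc2 (-0.06 to 0.64) and Sdhc (-0.60 to 0.00).

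Signal range and ratio also went together over the whole mouse array. Of 198 genes with mean signals of 20000 and over, 28.3% lay above 0, with a median of -0.18, whereas the 15 subunits in that range had 8 above 0 and a median of 0.01. After quantile normalization the same range had 53.8% of 195 genes above 0 and 14 of 15 subunits, with a subunit median of 0.13. Between 10000 and 20000 the subunits had 24 of 32 above 0 and a median of 0.16, against 55.2% and 0.04 for all genes there. Between 5000 and 10000 it was 18 of 21 and 0.20, against 62.0% and 0.12. Subunit medians were above those of all genes in each of these ranges.

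**Figure D3:**
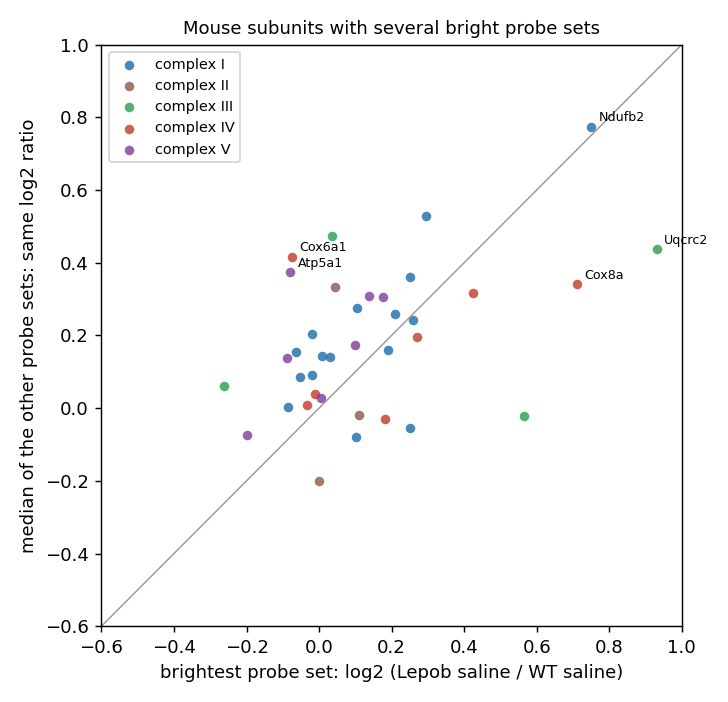
Log2 ratio of Lepob saline over WT saline on the brightest probe set (horizontal axis) and the median over the other bright probe sets (vertical axis) of 37 mouse subunits; the diagonal marks equal ratios. More points lie above the diagonal (25) than below it, among them Cox6a1 and Atp5a1, and Uqcrc2 and Cox8a lie below it.

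In rats the genotype comparison gave a similar small shift with fewer large ratios. Of 71 subunits, 57 were above 0 in Lepmkyo/Lepmkyo saline liver (80.3%), where 55.2% of all 9817 genes measured were. The median log2 ratio was 0.10, against 0.04 for all genes and also for those with mean signals of at least 1000, of which 55.4% lay above 0. At least 1.5-fold higher was 1 subunit, Atp5me, with a background of 10.2%, and 0 subunits were at least 1.5-fold lower, with a background of 5.92%. Atp5me, a small membrane subunit of the ATP synthase, had signals of 3650 in WT, 5896 in Lepmkyo saline and 5697 in Lepmkyo leptin liver, a ratio of 0.69 (1.62-fold).

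By complex, the rat medians were 0.14 for complex I (28 of 34 above 0), 0.10 for complex II (4 of 4), 0.13 for complex III (7 of 8), 0.05 for complex IV (6 of 10) and 0.06 for complex V (12 of 15). The 6 core subunits of complex I were all above 0, with a median of 0.14. That of the 28 accessory subunits was 0.13, so the core was not nearer to 0 in rats. The 12 Ndufa subunits had a median of 0.08 and the 11 Ndufb subunits 0.17, the reverse of the order in mice. Ndufa12, an accessory subunit, was the highest in complex I at 4518, 6725 and 6130 (0.57, 1.49-fold). Ndufv3 followed with 4581, 6348 and 6393 (0.47) and Ndufb5 with 8135, 10925 and 9973 (0.43). Ndufa5 was lowest, at 1057, 855 and 969 (-0.31).

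Sdhb was the highest rat subunit of complex II, with 9716, 12073 and 11773 (0.31), and Sdhd the lowest, with 11206, 11622 and 11366 (0.05). In complex III, Uqcrq, a small membrane subunit, was highest with 14096, 17369 and 18500 (0.30). Uqcrc2 was the only one below 0, with 7462, 6770 and 7188 (-0.14), although a dimmer probe set of it read 815, 1204 and 899 (0.56). In complex IV the highest was Cox5a, on a dim probe set of 381, 465 and 422 (0.29). Cox6c was the lowest rat subunit, at 20388, 15953 and 17120 (-0.35). In complex V, Atp5pf of the peripheral stalk had 6392, 8902 and 9038 (0.48), and the catalytic Atp5f1b had 24724, 20387 and 22615 (-0.28). In rats, too, genes of 20000 and over had lower ratios on the whole array, with 23.6% of 144 above 0, and Atp5f1b lies in that range.

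The species share no array, so their ratios come from separate measurements. Of 54 subunits matched by identical symbol, 37 had the same sign in both species (68.5%), against 57.9% of 8303 matched genes. Without probe sets that can bind several transcripts it was 22 of 39 (56.4%), against 57.5% of 6910 matched genes. Above 0 in both were 33 (61.1%), against 31.3% of all matched genes. Another 4 were below 0 in both, 7 were above 0 in mice only and 10 in rats only. Most subunits lay above 0 within each species, and this alone makes equal signs frequent. The counts therefore do not show agreement gene by gene. The sizes did not go together: across the 54 subunits Pearson's r was -0.01, given as a description, since these genes share arrays and scaling. A log2 ratio of at least 0.32 in both species was reached by 1 subunit (1.85%), where 8.66% of all matched genes reached it. This was Ndufa9, at 0.48 in mice and 0.38 in rats, with Sdhb just short of it at 0.43 and 0.31. Matching older mouse symbols through synonyms raised the number to 66 subunits, of which 43 had the same sign (65.2%), against 57.9% of 8444 matched genes.

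The subunits with the largest ratios differed between the species. Ndufa2, at 0.86 in mice, was at 0.05 in rats, with signals of 5041, 5206 and 5268. Cox8a, at 0.71 in mice, was at 0.10 in rats, and Uqcrc2, at 0.93, was at -0.14. In the other direction, the rat genes Atp5me and Atp5pf had ratios of 0.69 and 0.48, and their mouse counterparts Atp5k and Atp5j had -0.20 and -0.24. Ndufa5 was at 0.25 in mice and -0.31 in rats. With 1 array per group these differences between species could not be tested.

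**Figure D4:**
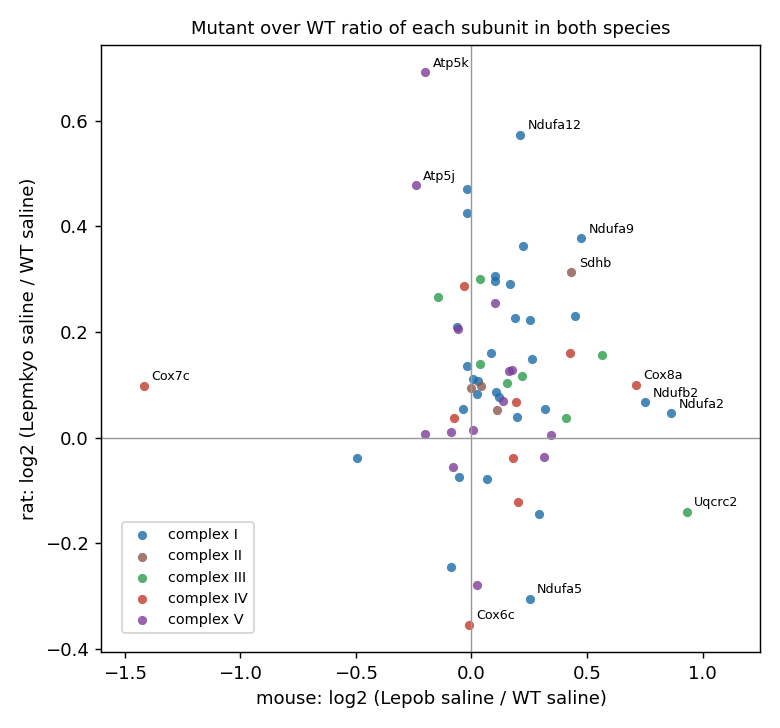
Log2 ratio of mutant saline over WT saline in mice (horizontal axis) and rats (vertical axis) for 66 subunits matched by symbol or synonym, each point a subunit coloured by complex and named by its mouse symbol where labelled. Most points (38) are in the upper right quadrant near 0, and the largest mouse ratios (Uqcrc2, Ndufa2, Ndufb2, Cox8a) are not the largest rat ratios.

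Assembly factors help build the complexes and are not part of the finished enzymes. Of 8 measured Ndufaf genes in mice, 7 were above 0, where 47.4% of all genes were. The median of the 8 was 0.08, close to the 0.12 of the complex I subunits. Ndufaf3 was highest at 870, 1244 and 1200 (0.52), followed by Ndufaf4 (0.29), Ndufaf5 (0.26), Ndufaf1 (0.09), Ndufaf7 (0.07), Ndufaf8 (0.02) and Ndufaf2 (0.01). Ndufaf6 was the only one below 0 on its brightest probe set, at 1318, 953 and 792 (-0.47). Dimmer probe sets gave -0.15 for Ndufaf4 and -0.52 for Ndufaf8. In rats 4 of 6 Ndufaf genes were above 0, where 55.2% of all genes were, with a median of 0.06. Ndufaf7, a methyltransferase that acts on a core subunit, was highest at 278, 414 and 461 (0.57), and Ndufaf5 was lowest at 421, 363 and 401 (-0.22). The other rat values were 0.14 for Ndufaf8, 0.12 for Ndufaf3, 0.00 for Ndufaf4 and -0.18 for Ndufaf1.

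Sdhaf genes assemble succinate dehydrogenase. In mice Sdhaf4, a chaperone of the flavinylated Sdha, had signals of 1617, 3071 and 2910, a ratio of 0.93 (1.90-fold). Sdhaf1, which serves the iron-sulfur subunit, was at 0.48, Sdhaf3 at -0.04 and Sdhaf2 at -0.40. In rats the 4 Sdhaf genes were all above 0, with a median of 0.25: Sdhaf1 at 0.51, Sdhaf2 at 0.30, Sdhaf3 at 0.20 and Sdhaf4 at 0.18. The signs of Sdhaf2 and of Sdhaf3, which was close to 0 in mice, differed between the species.

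Isoforms known from muscle, testis or lung were dim or not measured, as were most muscle markers (5 of 8 under the floor on all arrays in mice and 6 of 7 in rats). In mice Cox6a2, Cox6b2, Cox7b2, Cox8b and Ndufa4l2 were under the floor on all 3 arrays, and Cox4i2 was at 90.5 in WT and under it in both mutants. Cox7a1, the heart and muscle form, read 102, 208 and 157, a ratio of 1.03 near the floor, and Cox8c read 512, 339 and 329 (1.51-fold lower). In rats Cox4i2, Cox6a2, Cox6b2, Cox7a1, Cox7b2, Cox8b and Ndufa4l2 were under the floor on every array. Cox7a2l, which joins complexes III and IV in supercomplexes, read 3920, 5545 and 5689 in mice (0.50) and 3581, 3782 and 3778 in rats (0.08). The inhibitor of the ATP synthase, Atp5if1, read 822, 989 and 1078 in rats (0.27), and Cox6c-ps1 read 127, 138 and 94.3.

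After leptin, subunit signals stayed close to those of the saline mutants. In mice 34 of 73 subunits had a leptin over saline ratio above 0 (46.6%), where 49.4% of all genes and 49.6% of genes with mean signals of at least 1000 did, and the median was -0.01. After quantile normalization 22 of 73 were above 0, where 48.7% of all genes were, and after centring 14 of 73, where 40.9% were. At least 1.5-fold higher was 1, with a background of 2.18%, and 0 were at least 1.5-fold lower, with a background of 2.21%. The one was the dim Cox7c, from 92.1 in the saline to 154 in the leptin array (0.74, 1.67-fold), both well under the 246 of WT liver. On their brightest probe sets, subunits with mean signals of at least 1000 had ratios from -0.16 to 0.12. Other probe sets went lower: one for Sdhc read 1414 in the saline and 931 in the leptin array (-0.60). One for Ndufv2 read 8163 and 6975 (-0.23).

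By complex, the mouse leptin medians were -0.03 for complex I (11 of 33 above 0), -0.08 for complex II (1 of 4), -0.04 for complex III (2 of 9), 0.02 for complex IV (8 of 10) and 0.03 for complex V (12 of 17). Over the whole mouse array, 79.8% of 198 genes of 20000 and over were above 0 for leptin, with 9 of 15 subunits there. Besides the dim Ndufb1, at -0.56, the lowest were Uqcrc1, a core protein of complex III, at 9313, 8423 and 7523 (-0.16), and Atp5b (-0.16). The highest of complex V was Atp5d, the delta subunit of the F1 head, at 13449, 14798 and 16131 (0.12). Ndufb7 was highest in complex I (0.09) and Uqcrq in complex III (0.09). In complex II, Sdhc (0.00) was highest and Sdhb (-0.09) lowest, and in complex IV Cox7a2 was lowest (-0.01). These values lie within the probe set SD of 0.13, apart from the dim genes, Uqcrc1, Atp5b and Ndufs1 (-0.14) and Cyc1 (-0.14). Of the assembly factors, Ndufaf5 (-0.35) and Ndufaf6 (-0.27) were lowest.

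In rats 48 of 71 subunits were above 0 after leptin (67.6%), where 52.0% of all genes and 56.3% of genes with mean signals of at least 1000 were. The median was 0.03 against 0.01 for all genes. Brighter genes had higher leptin ratios over the whole rat array. Between 5000 and 10000, 58.3% of all genes and 23 of 33 subunits were above 0. Between 10000 and 20000 it was 72.6% and 17 of 25, with medians of 0.06 for all genes and 0.03 for subunits. At 20000 and over it was 90.3% of 144 genes and 2 of 2 subunits. Subunits at least 1.5-fold higher or lower numbered 0 in each direction, with backgrounds of 2.12% and 2.59%, and on their brightest probe sets all lay between -0.14 and 0.18. Other probe sets went lower: one for Sdhd read 8044 in the saline and 6451 in the leptin array (-0.32), and a dimmer one for Uqcrc2 read 1204 and 899 (-0.42). The direction depended on scaling: after quantile normalization the median was -0.01 and 31 of 71 were above 0.

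The rat complexes had leptin medians of 0.02 for complex I (22 of 34 above 0), -0.03 for complex II (1 of 4), 0.10 for complex III (8 of 8), 0.01 for complex IV (5 of 10) and 0.03 for complex V (12 of 15). Complex III stood highest, led by Uqcrc1 at 6399, 7695 and 8702 (0.18) and Uqcrfs1, the Rieske iron-sulfur protein, at 11448, 12301 and 13703 (0.16), with Uqcr10 lowest at 0.01. The 5 subunits of the F1 head of complex V were also all above 0, with a median of 0.11, and Atp5pb of the stalk was highest at 17460, 17629 and 19732 (0.16). Ndufa5 (0.18), Sdhc (0.11) and Cox6c (0.10) were highest in their complexes. Ndufa12 (-0.13), Sdha (-0.11), Cox5a (-0.14) and Atp5me (-0.05) were lowest. Of the assembly factors, Ndufaf3, at 1262 and 1561, was highest (0.31) with Ndufaf4 (0.30) beside it. Apart from those of Ndufaf3 and Ndufaf4, each of these ratios was smaller than the rat probe set SD of 0.19.

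The leptin and genotype comparisons of a species share the mutant saline array. Set side by side, Ndufa2 was at 0.86 for genotype and -0.11 for leptin in mice, Uqcrc2 at 0.93 and -0.04, Ndufb2 at 0.75 and -0.07, Cox8a at 0.71 and 0.03, and Sdhaf4 at 0.93 and -0.08. In rats Atp5me was at 0.69 and -0.05 and Ndufa12 at 0.57 and -0.13. These genes had high genotype ratios. Among those with low ones, mouse Cox7c was at -1.42 and 0.74, rat Atp5f1b at -0.28 and 0.15, and rat Ndufa5 at -0.31 and 0.18. Others with low ratios did not rise after leptin: the dim mouse Ndufb1 was at -0.50 and -0.56. Mouse Uqcrc1 was at -0.14 and -0.16, and mouse Uqcrb at -0.26 and -0.02, or 0.06 and -0.08 on its other bright probe set.

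Other genes of the pathway were listed by role. Of the subunits encoded in mitochondrial DNA, mouse ND5 (complex I) read 60395, 43065 and 44841 (-0.49), and rat COX1 and COX2 (complex IV) read 31021, 40028 and 44487 (0.37) and 52274, 47919 and 49902 (-0.13). Carriers, channels and uncoupling proteins were above 0 for 8 of 8 measured genes in each species (in mice Ucp3 with WT under the floor, in rats Atp5if1 among them), with medians of 0.38 in mice and 0.11 in rats, where 47.4% and 55.2% of all genes were above 0. After leptin 1 of 8 was above 0 in mice (median -0.09) and 5 of 8 in rats (0.05). They include the adenine nucleotide carriers, which exchange ATP for ADP: Slc25a4 read 367, 713 and 637 in mice (0.96) and 177, 367 and 408 in rats (1.06), and Slc25a5, the main liver form, 20675, 26632 and 25441 in mice (0.37). Slc25a4 was dim in both. Of the uncoupling proteins, Ucp1 was under the floor in both species, and Ucp2 in rats read 186, 304 and 139, a leptin ratio of -1.13.

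The tricarboxylic acid cycle, which supplies the NADH and succinate, was above 0 for 10 of 14 genes in mice (median 0.23) and 7 of 13 in rats (0.07). In mice 4 of the 14 were at least 1.5-fold higher, with a background of 12.3%: pyruvate carboxylase Pcx at 0.99, malate dehydrogenase Mdh2 at 0.98, Suclg2 at 0.68 and isocitrate dehydrogenase Idh2 at 0.64. Idh2 was also at 0.64 in rats, and Mdh2 at -0.08. Electron carriers and coenzyme Q synthesis had 11 of 18 above 0 in mice (0.22) and 10 of 17 in rats (0.05). Coq10a, a coenzyme Q binding protein, was lower in both mutants than in WT, at 746, 390 and 547 in mice (-0.93) and 1521, 634 and 587 in rats (-1.26). Cytochrome c (Cycs) was level in mice, at 24075, 24744 and 24545.

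Assembly genes of complexes III to V had 16 of 27 above 0 in mice (median 0.05) and 15 of 26 in rats (0.05). The copper factor Coa6 read 2077, 4931 and 4478 in mice (2.37-fold higher). Among other complex I assembly genes, 4 of 7 were above 0 in mice and 5 of 7 in rats. Nubpl, which delivers iron-sulfur clusters, was at 0.84 in mice and 0.92 in rats, and Ecsit at -0.99 and -0.28. Mitochondrial ribosomal proteins had 47 of 76 above 0 in mice (0.07) and 46 of 73 in rats (0.10). After leptin, 59 of those 73 were above 0 in rats (0.09), where 52.0% of all genes were, and 48 of 76 in mice (0.03), where 49.4% were. The other lists had leptin counts above 0 in mice of 3 of 14 for the tricarboxylic acid cycle, 5 of 18 for electron carriers, 11 of 27 and 3 of 7 for the assembly genes and 9 of 14 for the regulators described next. In rats these were 8 of 13, 8 of 17, 17 of 25, 3 of 7 and 4 of 13.

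Regulators of mitochondrial genes had 9 of 14 above 0 in mice (median 0.16) and 6 of 13 in rats (-0.04). The nuclear receptor Ppara, a driver of fatty acid oxidation genes, read 2230, 7564 and 7610 in mice (1.76), while the coactivator Ppargc1a read 683, 662 and 680. Nrf1, whose motif was counted above, read 227, 206 and 176, and Gabpa 2241, 2553 and 2593. In rats Ppargc1a read 300, 257 and 129, a leptin ratio of -1.0, while the subunits' leptin median was 0.03. Tfam, which maintains mitochondrial DNA, was at 0.23 in mice and 0.06 in rats.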

How the data were processed

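Total liver RNA was hybridised to Affymetrix arrays, 1 per group. The deposited values are linear signal intensities; the submitters' processing notes name MAS5, without a version. MAS5 scales arrays to a common trimmed mean, 496 to 497 on the 6 arrays, while medians ran from 77.0 to 91.9 in mice and 93.6 to 99.3 in rats. Detection calls were not used here. Exactly 1 symbol was annotated for 34945 of 45037 mouse and 20826 of 31042 rat probe sets, several for 932 and 436, and none for 9160 and 9780. Members were found by annotated symbol, and updating mouse symbols changed none of them.

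For each gene the probe set with the highest mean over 3 arrays was used, provided that a signal of either paired array reached the floor. Ratios were log2 after raising lower values to the floor. Members under the floor on all arrays were 19 mouse and 12 rat probe sets, and 89 of 95 mouse and 84 of 91 rat genes were measured for genotype. Probe set SDs pool bright and dim probe sets with both arrays above the floor. Calculations ran in Python 3.11.15 with pandas 2.3.3 and numpy 2.4.6, and were tested on simulated data. Leaving out replicates was not possible.

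Named were members 1.5-fold apart, the highest and lowest subunit of each complex and comparison, assembly factors, tissue isoforms, members with discordant probe sets and subunits with log2 ratios past 0.32 of the same sign in both species; examples beyond that rule were chosen after their values were seen. The members, lists and markers were chosen with earlier results of these data known. Symbols of mitochondrially encoded genes, matching by synonym, ranges of signal and promoter motifs were added after the files were seen. Sequences are from RefSeq. Alternatives were quantile normalization, median centring, a floor at the 25th or at the 75th percentile, a median of probe set ratios, dropping probe sets that can bind several transcripts, and updated symbols.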

Additional observations from a re-analysis of the deposited data

Results flagged for a closer look

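The leptin comparison had medians of opposite sign in the 2 species for all subunits, for complex I and for complex III. The difference was not tested, since each group held 1 array. Over all subunits the median log2 ratio of leptin over saline was -0.0082 in mice and 0.026 in rats. For complex I it was -0.028 in mice and 0.021 in rats. For complex III it was -0.041 in mice, where 7 of 9 subunits were below 0, and 0.096 in rats, where 8 of 8 were above. After quantile normalization the rat subunit median was -0.01 and that of complex I -0.0084, so that for these the opposition between the species was lost.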

How the results depend on the processing

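No paired analysis was possible because each group held 1 array. Centring arrays on their median moved the median of all mouse genes in the genotype comparison from -0.03 to 0.22. The subunit median became 0.37, those of complexes I to V 0.38, 0.33, 0.41, 0.44 and 0.28, and 13 subunits were 1.5-fold higher. Relative to all genes, the subunit median was 0.14 higher as deposited and 0.09 to 0.17 over the alternatives, and in rats 0.06 and 0.06 to 0.09. In the mouse genotype comparison, without probe sets that can bind several transcripts 1 subunit was 1.5-fold higher and 0 lower, of 54, and Ndufb2, left with a dim probe set, was at -0.52. With the floor at the 75th percentile 0 were lower. For mouse leptin, subunits above 0 numbered 22 after quantile normalization and 14 after centring, which also gave 1 that was 1.5-fold lower, while 0 were 1.5-fold higher with the floor at the 75th percentile or without those probe sets. In rats 2 subunits were 1.5-fold higher for genotype after quantile normalization or centring, and 31 were above 0 for leptin after quantile normalization. The share of all genes 1.5-fold apart was not counted under the alternatives. The same sign in both species was found for 22 of 39 genotype ratios without those probe sets, and for 14 of 54 leptin ratios after centring, against 27 as deposited. Of the leptin medians, of all subunits and by complex, 8 values changed sign under quantile normalization or centring. The causes were not tested. Updated symbols were not run for rats. The number of arrays limits every value.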
